A study of Mus musculus with 22 samples.

Results

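The Toll-like receptors and the proteins that carry their signal through MyD88 were described here as 10 genes, namely the receptors Tlr1, Tlr2, Tlr4, Tlr6, Tlr7 and Tlr9, the adaptor Myd88, the kinases Irak4 and Irak1 and the ubiquitin ligase Traf6. They were chosen by name, and the 44 transcripts that the GENCODE annotation assigns to them were summed to 1 level per gene, so that 10 of the 17023 genes in the table were followed over 22 RNA sequencing libraries in 6 groups. All 10 genes passed the filter on low counts in every comparison.

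The libraries were made from TCL1-355 TKO cells, a murine leukemia line established from the Eμ-TCL1 model of chronic lymphocytic leukemia whose engineered lesions include CDKN2A and CDKN2B, and all groups shared this background. NFKBIE-ko cells had exon 2 of the NFKBIE gene cut with Cas9, and NFKBIE-wt cells were the mock-treated counterpart. Recipients were C57BL/6 mice, 5 for each genotype, and the study's methods give an age of 2 to 3 months for mice that received edited Eμ-TCL1 cells. The intraperitoneal inoculum of each genotype had been grown for 21 days in 1 other C57BL/6 mouse. After 10 days the peritoneal cavity (PC) and the spleen were each sampled, with 4 libraries per genotype and site. Since the recipients of a genotype numbered 5, PC and spleen libraries share animals, but the labels do not tie them to each other, and they were tested as separate samples. For the in vitro groups, with 3 samples per genotype, cells from the spleens of 3 mice had spent 2 weeks in culture. The labels give the tissue of all samples as blood. Replicates were separate samples of a group, and p-values measure the spread between them. The recovered cells had not been purified, so that the spleen and PC libraries also held RNA of host cells. Because each genotype passed through its own propagation mouse, the effect of the edit and that of the propagation cannot be told apart.

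Toll-like receptors recognise conserved microbial molecules and nucleic acids. Tlr2 pairs with Tlr1 or Tlr6 at the cell surface and binds lipopeptides, Tlr4 binds lipopolysaccharide together with its co-receptors, and Tlr7 and Tlr9 sit in endosomes and sense single-stranded RNA and CpG DNA. All of these receptors can recruit the adaptor MyD88, which assembles IRAK4 and IRAK1. Activated IRAK1 engages TRAF6, and the cascade ends in the release of NF-κB from its IκB inhibitors, of which IκBε is the product of NFKBIE. B cells, macrophages and dendritic cells all use these receptors, and in chronic lymphocytic leukemia the TLR9 ligand CpG and activating MYD88 mutations are well known.

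Positions are given in GRCm39. Tlr1 (ENSMUSG00000044827) was at chr5:65082022-65090941 and its neighbour Tlr6 (ENSMUSG00000051498) at chr5:65108704-65203497, both on the minus strand. Tlr2 was at chr3:83743576-83749074, Tlr4 at chr4:66745783-66849936, Tlr7 at chrX:166086758-166113605 and Tlr9 at chr9:106099797-106104082. Of 82 annotated Irak1 transcripts 20 were listed in the table. Myd88 was at chr9:119165000-119170486, Irak1 at chrX:73056964-73067554, Irak4 at chr15:94441161-94479696 and Traf6 at chr2:101508519-101533545. Tlr1 and Tlr6 are near-identical over part of their coding sequence, which bears on how reads were divided between them. Of the 2754 different windows of 31 bases in the main Tlr1 transcript, 603 (21.9%) also occurred in Tlr6. The longest shared stretch was 229 bases of coding sequence, at chr5:65082880-65083108 in Tlr1 and chr5:65111171-65111399 in Tlr6 (GRCm39, minus strand), shown here 5′ to 3′ because reads inside it fit both genes:

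Tlr1 and Tlr6 shared run: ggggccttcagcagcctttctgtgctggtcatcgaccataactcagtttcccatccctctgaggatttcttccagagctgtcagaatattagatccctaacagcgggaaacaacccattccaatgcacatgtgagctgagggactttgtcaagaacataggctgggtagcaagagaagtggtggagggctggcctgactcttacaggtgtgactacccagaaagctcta

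The levels of Tlr1 and Tlr6 are therefore uncertain where the estimate split such reads. In addition, exons of Myd88 overlapped Acaa1a on the opposite strand by up to 223 bases, and exons of Irak4 overlapped Pus7l by up to 233 and Twf1 by up to 374 bases, and reads of such stretches could not be told apart without strand.

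Promoter windows from 250 bases before to 50 bases after the start site were taken from RefSeq (GRCm38.p6) for 8 of the 10 genes, and Tlr4 and Tlr7 had no entry. The windows of Tlr2 and Tlr9 are printed because Tlr2 was the receptor with the largest difference between genotypes and Tlr9 the receptor with the highest mean level per length in the cultures of both genotypes. Capitals mark matches, on either strand, to the kappaB consensus in Tlr2 and to the octamer ATGCAAAT and the PU.1 motif GAGGAAGT in Tlr9.

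Tlr2, chr3:83841559-83841858, minus strand: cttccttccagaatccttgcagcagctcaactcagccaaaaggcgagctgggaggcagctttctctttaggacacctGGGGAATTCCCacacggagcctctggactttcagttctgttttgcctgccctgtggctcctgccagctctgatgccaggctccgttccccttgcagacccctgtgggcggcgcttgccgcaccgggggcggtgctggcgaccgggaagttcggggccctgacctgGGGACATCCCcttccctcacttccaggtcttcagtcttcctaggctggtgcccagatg
Tlr9, chr9:106222348-106222647, plus strand: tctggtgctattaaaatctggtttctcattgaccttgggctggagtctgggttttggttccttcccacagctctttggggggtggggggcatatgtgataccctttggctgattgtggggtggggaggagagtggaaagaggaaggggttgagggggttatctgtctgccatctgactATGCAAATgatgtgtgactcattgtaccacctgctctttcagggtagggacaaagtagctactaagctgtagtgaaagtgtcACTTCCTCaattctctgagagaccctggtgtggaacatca

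The Tlr2 window held 3 kappaB matches, which began at -173, -172 and -8 from the start site, the first of them overlapping the second. The Tlr9 window held an octamer match at -72 and a PU.1 match at 10. Of 32851 promoter windows of the same length, 4.505% held the kappaB consensus, 1.735% the octamer and 3.202% the PU.1 motif. Tlr1 had a PU.1 match at -23, and the interferon-stimulated response element, searched by its 10-letter consensus and present in 3.443% of windows, was matched in Tlr6 at -116 and -110, 2 matches that overlapped, and in Myd88 at -40. Tlr1 and Tlr6 each had another start site with a window of its own. In those windows and in the windows of Irak1, Irak4 and Traf6 the letters of these motifs did not occur. A match describes the letters of a window and not a bound site.

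Total counts per library lay between 24036763 and 26581304. The level of Nfkbie was lower in NFKBIE-ko than in NFKBIE-wt PC samples (log2 fold change -0.56 ± 0.12, SE) and overlapped between genotypes in the spleen. In vitro it was at 113, 139 and 53.7 CPM (counts scaled to a common library size with TMM) in NFKBIE-wt and at 55.1, 59.0 and 47.5 CPM in NFKBIE-ko. Without NFKBIE-wt in vitro replicate 3, the library at 53.7 CPM, the cultures did not overlap, with a log2 fold change of -1.23 ± 0.13 that did not pass the test (edgeR, adjusted p = 0.0925). Counts per gene do not read the edited site. A pair of libraries stood apart from their labels in the markers of host cells. The library labelled NFKBIE-wt spleen replicate 4 had granulocyte markers that summed to 0.153 CPM, with all 9 markers at or under 3 counts, against 61.9 to 405 CPM in the other NFKBIE-wt spleen libraries. The third library labelled as NFKBIE-wt in vitro (replicate 3) had a granulocyte sum of 202 CPM, against 0.152 to 3.59 CPM in the other 5 cultures. Each of the pair thus lay within the granulocyte range of the other's labelled site, and the macrophage markers ran the same way, at 29.3 CPM in the former, below the other spleens, and 93.4 CPM in the latter, above the other cultures. Whether their labels were exchanged was not tested. Both were kept in their labelled groups, and each result that rests on them is also given without both.

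In the 5 cultures other than that library, RNA of all 6 receptors and 4 signalling genes was present. On the TPM scale, which divides by annotated length and allows genes to be compared, Irak1 was highest at 96.4 to 110, followed by Tlr9 at 24.2 to 37.4 and Tlr1 at 19.4 to 31.4. Traf6 lay at 15.7 to 17.4, Myd88 at 15.2 to 18.1 and Irak4 at 5.06 to 7.75 TPM. Tlr2 lay at 4.38 to 5.13, Tlr7 at 2.28 to 5.85, Tlr6 at 2.80 to 4.67 and Tlr4 at 2.15 to 7.01 TPM. Tlr9 and Tlr1 thus lay above the other receptors per length in these 5 cultures without overlap. In the NFKBIE-ko cultures the ranges of neighbours in this order overlapped between Traf6 and Myd88, between Tlr7 and Tlr6 and between Tlr6 and Tlr4, and the other neighbours did not overlap. The order was less settled in the NFKBIE-wt cultures, where all neighbours overlapped except Irak1 with Tlr9 and Traf6 with Irak4. Without replicate 3 the NFKBIE-wt cultures still overlapped between Tlr9 and Tlr1 and between all neighbours from Irak4 down to the lowest.

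Receptors and co-receptors outside the 10 genes differed from them in the same cultures. Tlr8, an endosomal RNA sensor, had at most 5 counts and Tlr13, which senses bacterial ribosomal RNA in the mouse, at most 9 counts in each of the 5 cultures, against 0.455 to 5.13 and 4.15 to 20.1 TPM in the 8 PC libraries. Cd14, the co-receptor that hands lipopolysaccharide to Tlr4, and Lbp had 0 counts in all 5, which allows up to 3 counts per library and covers counting error only, whereas Cd14 lay at 32.8 to 87.0 TPM in the PC. The macrophage complement genes C1qa, C1qb and C1qc had at most 2, 7 and 8 counts. The macrophage markers Adgre1 and Cd68 were present in these cultures at 12.9 to 17.6 and 11.3 to 20.3 TPM, so that the list as a whole did not fall to 0 there and its 12 members summed to 36.5 to 65.1 CPM. Among the other macrophage markers, Itgam had 73 to 201 and Mrc1 81 to 110 counts in the 5 cultures. In NFKBIE-wt in vitro replicate 1, Lyz2 reached 339 and Csf1r 59 counts. All 6 receptors thus had RNA in libraries in which C1qa, Cd14, Tlr8 and Tlr13 were at or near 0 while some macrophage markers were not. Whether host cells that remained in culture gave part of this RNA was not tested.

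**Figure D1:**
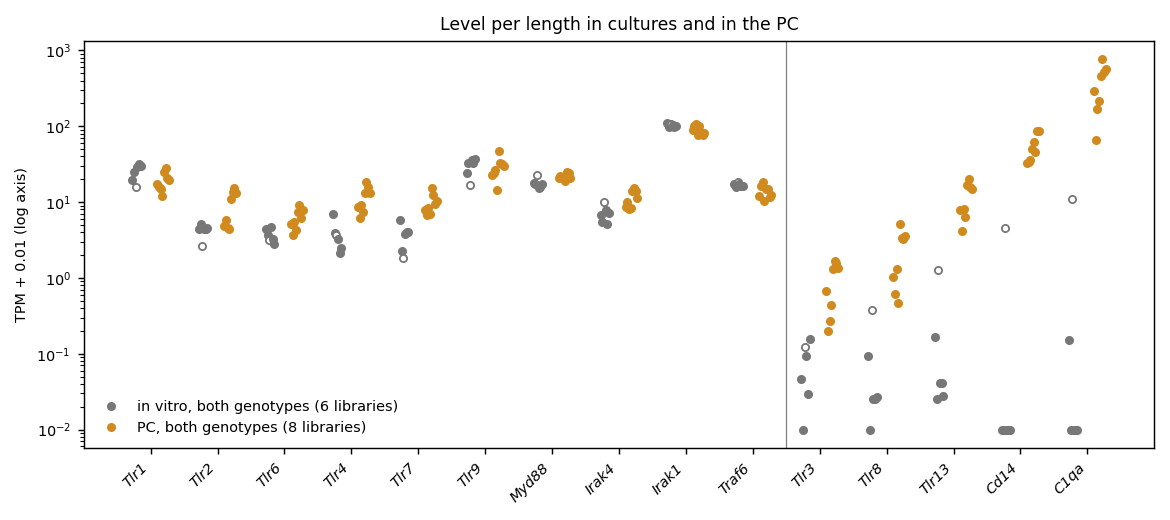
Level of each gene in TPM plus 0.01 on a log axis, with 1 point per library, for the 6 in vitro libraries (grey) and the 8 PC libraries (orange) of both genotypes; the open point is NFKBIE-wt in vitro replicate 3. The 10 genes left of the line lie between 1.8 and 110 TPM in every culture, and Cd14 and C1qa reach 0 in cultures but not in the PC.

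Tlr2, the shared partner of the lipopeptide receptors, was at 9.04, 9.64, 7.54 and 8.82 CPM in the NFKBIE-wt PC samples and at 18.6, 24.0, 28.5 and 24.4 CPM in the NFKBIE-ko PC samples. In the spleen it was at 6.00, 4.68, 3.97 and 3.34 CPM in NFKBIE-wt and at 10.4, 6.44, 9.80 and 9.66 CPM in NFKBIE-ko. In vitro it was at 6.64, 8.36 and 4.18 CPM in NFKBIE-wt and at 6.84, 7.09 and 7.17 CPM in NFKBIE-ko. Every NFKBIE-ko sample thus lay above every NFKBIE-wt sample in the PC and in the spleen, while the cultures overlapped.

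Tlr1, a partner of Tlr2, was at 29.9, 24.1, 22.7 and 21.9 CPM in NFKBIE-wt PC and at 37.4, 44.5, 35.0 and 32.7 CPM in NFKBIE-ko PC. Its cultures overlapped the PC of the same genotype, with 27.0, 36.1 and 22.7 CPM in NFKBIE-wt and 39.3, 45.6 and 41.5 CPM in NFKBIE-ko. The spleen was at 29.3, 18.2, 18.4 and 25.8 CPM in NFKBIE-wt, overlapping the PC and the cultures, and at 24.9, 25.7, 28.1 and 26.8 CPM in NFKBIE-ko, below all PC samples and cultures of that genotype. The genotypes did not overlap in the PC or in vitro and overlapped in the spleen.

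Tlr6, the other partner of Tlr2, was at 12.3, 8.52, 11.5 and 12.6 CPM in NFKBIE-wt PC and at 14.9, 19.8, 15.1 and 17.2 CPM in NFKBIE-ko PC. The spleen held its lowest values, 3.18 to 4.91 CPM in NFKBIE-wt and 2.58 to 3.73 CPM in NFKBIE-ko, and the cultures 4.33 to 9.49 and 6.31 to 7.36 CPM. Unlike Tlr1, Tlr6 was higher in the PC than in the cultures of NFKBIE-ko cells without overlap.

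Tlr4, the lipopolysaccharide receptor, was at 19.7, 13.6, 18.5 and 19.9 CPM in NFKBIE-wt PC and at 29.5, 43.7, 38.8 and 32.2 CPM in NFKBIE-ko PC. In the spleen it was at 8.13, 5.25, 5.90 and 9.82 CPM in NFKBIE-wt and at 8.27, 8.83, 11.3 and 9.12 CPM in NFKBIE-ko. In vitro it was at 13.1, 8.13 and 7.07 CPM in NFKBIE-wt and at 6.14, 4.36 and 5.34 CPM in NFKBIE-ko. The order of the genotypes thus differed by site, with NFKBIE-ko above NFKBIE-wt in the PC and below it in vitro, in neither case with overlap. The highest culture, NFKBIE-wt in vitro replicate 1, was also the one of the 5 with the highest macrophage sum, 65.1 CPM.

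Tlr7, the sensor of single-stranded RNA, was at 19.8, 14.6, 20.6 and 17.0 CPM in NFKBIE-wt PC and at 33.9, 33.7, 27.2 and 29.9 CPM in NFKBIE-ko PC. The spleen was at 4.47, 2.61, 1.77 and 4.64 CPM in NFKBIE-wt and at 5.96, 9.50, 4.78 and 4.19 CPM in NFKBIE-ko. The cultures were at 11.2, 6.15 and 4.85 CPM in NFKBIE-wt and at 8.80, 10.6 and 10.4 CPM in NFKBIE-ko. All 8 PC samples lay above all spleen samples and all cultures.

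Tlr9, the CpG receptor, was at 48.9, 46.3, 51.3 and 33.8 CPM in NFKBIE-wt PC and at 91.2, 65.7, 67.3 and 63.5 CPM in NFKBIE-ko PC. The cultures were at 42.2, 62.1 and 30.8 CPM in NFKBIE-wt and at 65.1, 61.5 and 67.6 CPM in NFKBIE-ko, within or near the range of the PC of the same genotype. The spleen was at 23.8, 11.7, 21.4 and 39.5 CPM in NFKBIE-wt and at 34.4, 52.4, 28.0 and 30.5 CPM in NFKBIE-ko. The highest NFKBIE-wt spleen value came from the library labelled replicate 4, and without it that group ended at 23.8 CPM, below all NFKBIE-ko spleen samples.

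Myd88, the adaptor, was at 42.6, 40.7, 39.5 and 47.4 CPM in NFKBIE-wt PC and at 35.0, 48.1, 49.7 and 41.9 CPM in NFKBIE-ko PC. The spleen was at 43.7, 43.1, 41.6 and 27.5 CPM in NFKBIE-wt and at 46.4, 42.4, 48.8 and 49.6 CPM in NFKBIE-ko. The cultures were at 29.9, 31.2 and 39.4 CPM in NFKBIE-wt and at 26.2, 28.1 and 29.5 CPM in NFKBIE-ko. With both libraries that stood apart left out, all cultures lay below all in vivo samples, and those libraries held the lowest spleen and the highest culture value.

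Irak4, the first kinase of the complex, was at 15.3, 15.8, 12.9 and 16.1 CPM in NFKBIE-wt PC and at 21.2, 25.5, 23.1 and 20.2 CPM in NFKBIE-ko PC. The spleen was at 12.7, 12.7, 11.7 and 8.32 CPM in NFKBIE-wt and at 12.9, 16.2, 13.6 and 13.5 CPM in NFKBIE-ko, and the cultures at 8.51, 8.55 and 14.1 and at 9.84, 7.70 and 10.6 CPM. As for Myd88, the lowest spleen value and the highest culture value came from the libraries that stood apart.

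Irak1, the kinase that IRAK4 activates, lay within a narrow range of 131 to 170 CPM over all 22 libraries, with medians of 167 CPM in NFKBIE-wt PC and 157 CPM in NFKBIE-ko PC. The lowest values were those of NFKBIE-ko spleen replicates 1 and 3. Traf6, the ubiquitin ligase downstream of IRAK1, lay between 43.9 and 75.3 CPM. Its NFKBIE-ko spleen samples were at 52.0, 53.7, 43.9 and 56.5 CPM, below all 4 NFKBIE-wt spleen samples at 71.5, 65.3, 73.1 and 61.0 CPM.

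**Figure D2:**
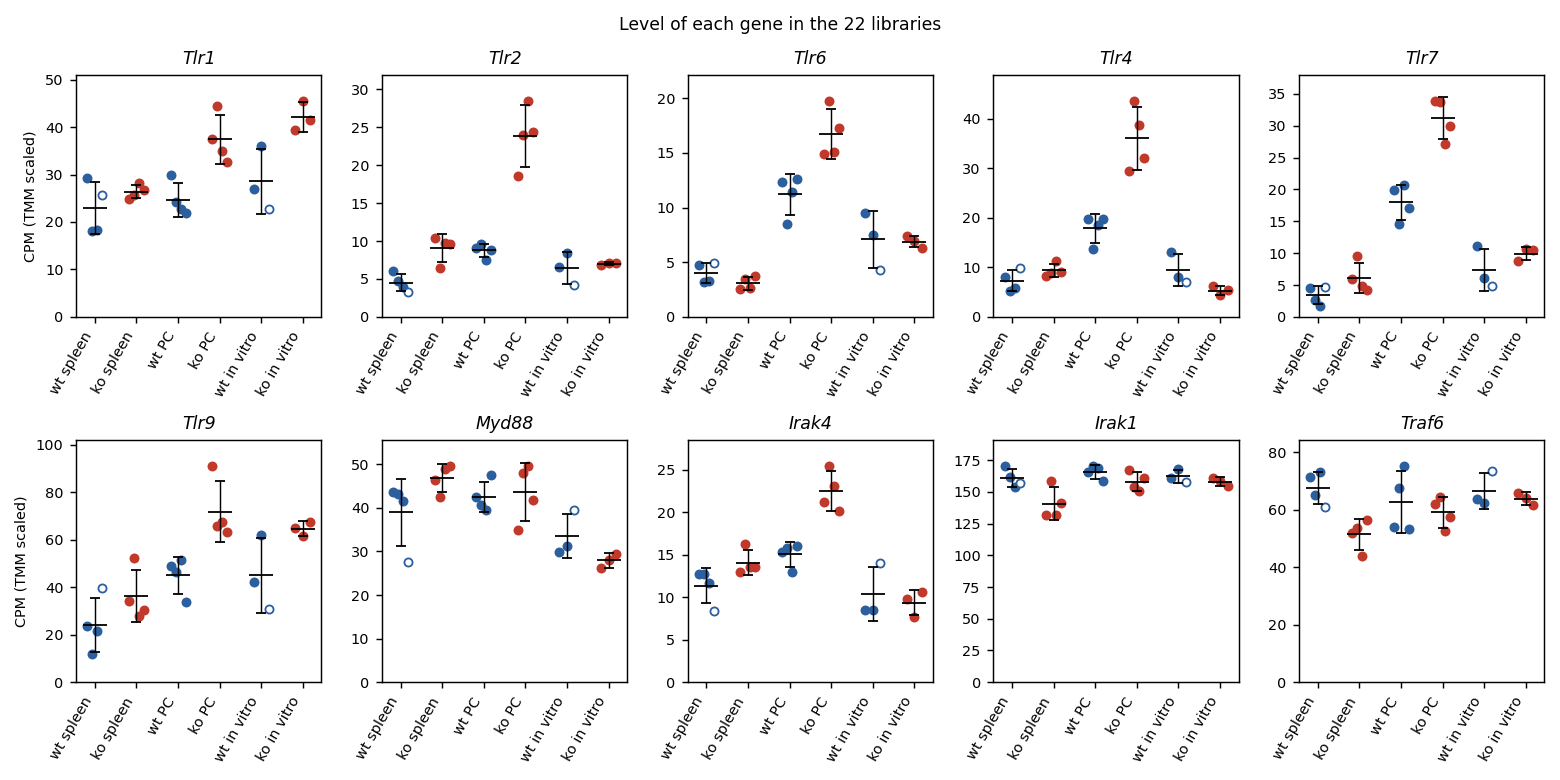
Level of each of the 10 genes in CPM in the 22 libraries, with 1 point per library by group (NFKBIE-wt blue, NFKBIE-ko red), and the mean and SD as bars; open points are the libraries that stand apart. The NFKBIE-ko PC points of Tlr2 (18.6 to 28.5 CPM) and Tlr4 (29.5 to 43.7 CPM) lie above those of all other groups.

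The first comparison asked which of these genes differed between NFKBIE-ko and NFKBIE-wt cells recovered from the PC. All 6 receptors and Irak4 were higher in NFKBIE-ko, and Myd88, Irak1 and Traf6 did not pass the test. The log2 fold change was 1.44 ± 0.13 (SE, n = 4 and 4) for Tlr2, with an adjusted p of 1.86e-05 in the quasi-likelihood test of edgeR with Benjamini-Hochberg adjustment over all genes. It was 1.00 ± 0.15 for Tlr4 (edgeR, adjusted p = 0.00048), 0.78 ± 0.12 for Tlr7 (adjusted p = 0.000569) and 0.67 ± 0.15 for Tlr9 (adjusted p = 0.00626). Tlr1 and Tlr6 were higher by 0.59 ± 0.13 and 0.57 ± 0.15 (edgeR, adjusted p = 0.00331 and 0.00911), and Irak4 by 0.58 ± 0.10 (adjusted p = 0.00128). The groups did not overlap for any of these 7 genes, a pattern found in the same direction for 21.8% of all genes. For Myd88 the log2 fold change was 0.03, with a 95% interval from -0.21 to 0.27, for Irak1 -0.07 (-0.21 to 0.06) and for Traf6 -0.09 (-0.34 to 0.17). The count of 7 of 10 higher stands beside 22.5% of all 12642 genes tested that were higher at the same threshold (20.9% were lower), and the median log2 fold change of the 10 genes was 0.58 against -0.01 over all genes. With a fold change above 1 on the log2 scale as a further requirement, 1 of the 10, Tlr2, was left, against 9.97% of all genes.

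All 7 genes stayed higher in each of the 8 fits that left out 1 library. When all 22 samples were fitted together, so that the groups share 1 estimate of the spread, Tlr6, Tlr7 and Tlr9 missed the threshold (edgeR, adjusted p = 0.0552, 0.0507 and 0.0894), and for Tlr6 also the main transcript alone did (adjusted p = 0.0775).

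Lists of host cell markers also differed between genotypes in the PC. The 12 macrophage markers summed to 594 to 1845 CPM in NFKBIE-wt PC and to 3947 to 5801 CPM in NFKBIE-ko PC, and 11 of them were higher in NFKBIE-ko, with a log2 fold change of 2.45 ± 0.32 for Lyz2 and 2.31 ± 0.31 for Adgre1. Granulocyte markers went the other way, with sums of 154 to 464 CPM in NFKBIE-wt and 31.2 to 47.1 CPM in NFKBIE-ko, and 5 of 7 tested were lower. Of 9 markers of T cells and NK cells, 7 were higher and 1 lower. This list does not mark host cells alone either, since it summed to 80.3 to 228 CPM in the 5 cultures other than NFKBIE-wt in vitro replicate 3. Lck was there at 67.6 to 192 CPM and Cd3g at 9.26 to 34.1 CPM, while Cd8a had at most 8 counts. Dendritic cell markers summed to 64.8 to 86.0 and 220 to 276 CPM, with 2 of the 4 tested higher. Most of that sum was Ccr9, at 59.0 to 81.5 CPM in NFKBIE-wt PC and 211 to 265 CPM in NFKBIE-ko PC. Ccr9 and Zbtb46 were also present in the 5 cultures, at 20.0 to 49.2 and 8.28 to 15.5 CPM, so this list does not mark host cells alone. B-cell and leukemia markers summed to 3289 to 3496 and 3792 to 3929 CPM, with 4 of 8 higher and 1 lower. The part of host cells in the higher receptor levels was not tested, and fewer cells of a type and less RNA per cell cannot be told apart in bulk samples.

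For the NFKBIE-ko PC samples the cultures give a reference for the receptor RNA of leukemia cells grown in culture. Tlr1 and Tlr9 were as high in NFKBIE-ko cultures (39.3 to 45.6 and 61.5 to 67.6 CPM), where C1qa was at 0 counts, as in NFKBIE-ko PC (32.7 to 44.5 and 63.5 to 91.2 CPM), whereas Tlr2, Tlr4, Tlr6 and Tlr7 were higher in the PC without overlap, as were 35.2% of all genes.

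**Figure D3:**
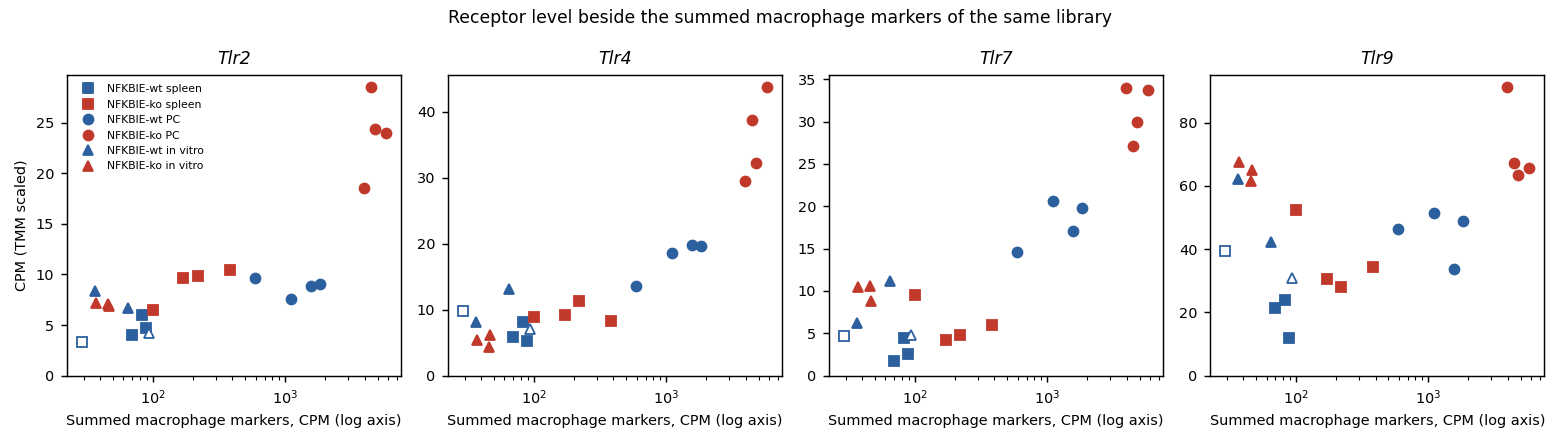
Level of Tlr2, Tlr4, Tlr7 and Tlr9 (CPM) in each library against the summed CPM of 12 macrophage markers in the same library (log axis), by genotype (NFKBIE-wt blue, NFKBIE-ko red) and site (squares spleen, circles PC, triangles in vitro); open points are the libraries that stand apart. Cultures with sums of 36.5 to 65.1 CPM reach Tlr9 levels up to 67.6 CPM, as high as most NFKBIE-ko PC samples with sums of 3947 to 5801 CPM, and do not reach the Tlr2 and Tlr4 levels of those samples.

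In the spleen, Tlr2 was higher in NFKBIE-ko by 0.99 ± 0.24 on the log2 scale (n = 4 and 4, edgeR, adjusted p = 0.0467), and the other 9 genes did not pass the test. This count of 1 of 10 stands beside 2.3% of 12221 genes higher and 3.13% lower. The genotypes did not overlap for Tlr2 and Irak4, as for 8.71% of genes in that direction, and for Traf6, which lay lower in NFKBIE-ko, as for 7.5% of genes. The call for Tlr2 rested on a small margin, since it was lost in 6 of the 8 fits that left out 1 library (all but those without NFKBIE-wt replicate 4 or NFKBIE-ko replicate 2, edgeR, adjusted p from 0.0551 to 0.152) and without the filter on low counts (adjusted p = 0.0546). Without both libraries that stood apart, Tlr2 was higher by 0.88 ± 0.23 (edgeR, adjusted p = 0.0394) and Traf6 was lower by a log2 fold change of -0.46 ± 0.12 (adjusted p = 0.0425), against 5.48% of genes higher and 6.68% lower. With all libraries the difference of Traf6 was -0.42 ± 0.11 (edgeR, adjusted p = 0.0696). Macrophage markers summed to 29.3 to 89.2 CPM in NFKBIE-wt and 100 to 382 CPM in NFKBIE-ko spleen, of which 0 of 11 tested passed the edgeR test with all libraries (7 had an unadjusted p below 0.05, and DESeq2 called 3) and 3 of 12 were higher without both libraries, and the granulocyte sums overlapped. Their part in the difference of Tlr2 was not tested.

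In vitro, 0 of the 10 genes differed between genotypes by edgeR, 2 had an unadjusted p below 0.05 (Tlr1 and Tlr4), and 0 differed by DESeq2. In that comparison 0.0341% of all 11722 genes were called higher and 0% lower, and 9.59% had an unadjusted p below 0.05. The log2 fold change was 0.55 ± 0.18 for Tlr1 (n = 3 and 3, edgeR, adjusted p = 0.517), -0.85 ± 0.29 for Tlr4 (adjusted p = 0.517) and 0.52 ± 0.24 for Tlr9 (adjusted p = 0.531). The cultures did not overlap for Tlr1, which lay higher in NFKBIE-ko, and for Tlr4 and Myd88, which lay lower, a pattern found for 10.1% of genes with NFKBIE-ko higher and 9.61% with NFKBIE-ko lower. Without NFKBIE-wt in vitro replicate 2, Tlr1 and Tlr9 were higher in NFKBIE-ko by 0.75 and 0.82 (edgeR, adjusted p = 0.0379 and 0.0452). That fit kept NFKBIE-wt in vitro replicate 3, which stood apart and had the lowest Tlr1 and Tlr9 of its group (22.7 and 30.8 CPM). The share of all genes called in that fit was not counted. Without both libraries that stood apart, 0 of 10 were called by edgeR, against 0.059% of genes higher and 0.0169% lower, with 2 at an unadjusted p below 0.05 (Tlr1 and Tlr4), against 10% of genes.

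**Figure D4:**
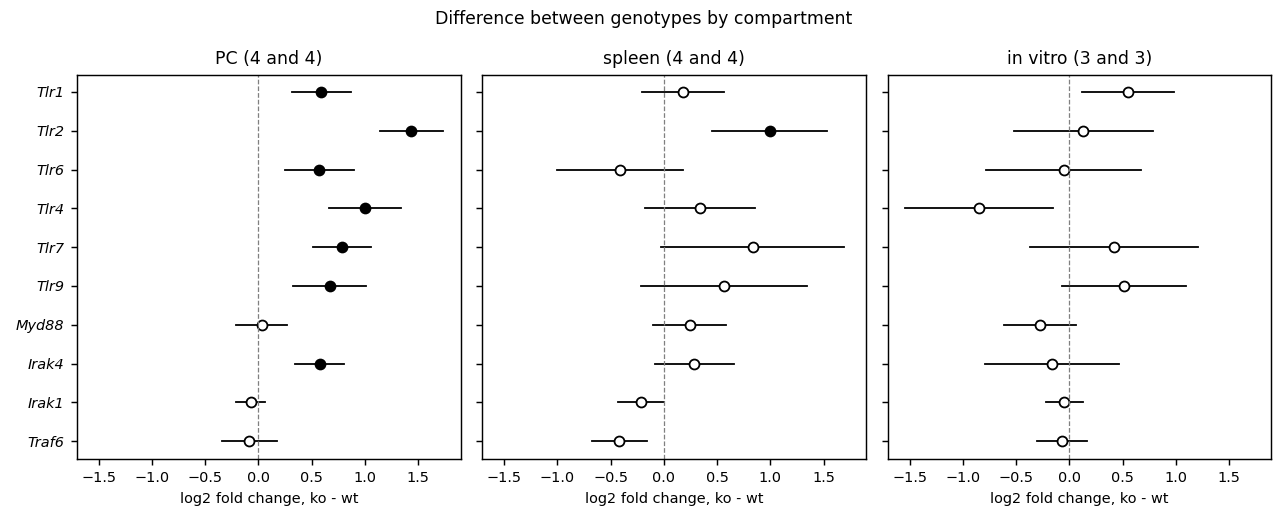
Log2 fold change between NFKBIE-ko and NFKBIE-wt for the 10 genes in the PC, the spleen and in vitro, with 95% intervals; filled points passed the edgeR test at an adjusted p of 0.05. In the PC, 7 filled points lie between 0.57 and 1.44; in the spleen Tlr2 is the 1 filled point, and there is no filled point in vitro.

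Whether the difference between genotypes itself depended on the site was tested in a fit of all 22 samples. For 2 of the 10 genes, Tlr2 and Tlr4, the effect was larger in the PC than in vitro, by 1.32 ± 0.31 and 1.86 ± 0.33 on the log2 scale (edgeR, adjusted p = 0.0265 and 0.0089). Of all 13537 genes, 3.83% had a larger and 0.975% a smaller effect. Both calls held without both libraries that stood apart, with differences of 1.53 and 2.01 (adjusted p = 0.00372 and 0.00136), against 4.24% of genes larger and 1.88% smaller. That of Tlr2 was lost in 6 fits that left out 1 library, namely NFKBIE-wt PC replicate 3, NFKBIE-ko PC replicates 2 and 3 and NFKBIE-ko in vitro replicates 1, 2 and 3 (edgeR, adjusted p from 0.05 to 0.077). For Tlr1, Tlr7 and Tlr9 the difference of effects between PC and culture was 0.05 (95% interval -0.46 to 0.56), 0.38 (-0.55 to 1.30) and 0.16 (-0.74 to 1.06), none past the test. Irak4 did not pass in the main fit but was called by DESeq2 with all libraries (0.76, adjusted p = 0.04). By edgeR it passed when NFKBIE-wt in vitro replicate 2 was left out (0.86, edgeR, adjusted p = 0.0444). That fit kept NFKBIE-wt in vitro replicate 3, which stood apart, and the share of all genes called in it was not counted.

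Between the PC and the spleen 0 of the 10 genes had different effects by edgeR, against 2.75% of genes with a larger and 2.17% with a smaller effect in the PC, and 3 had an unadjusted p below 0.05 (Tlr4, Tlr6 and Traf6), against 20.4% of genes. DESeq2 called 1, Tlr6. The difference for Tlr6 was 0.99 ± 0.31 with all libraries (edgeR, adjusted p = 0.0711) and 0.86 ± 0.26 without both libraries that stood apart (adjusted p = 0.0463, where 4.39% of genes were higher and 3.86% lower), and it also passed without NFKBIE-wt spleen replicate 2, NFKBIE-wt in vitro replicate 1 or NFKBIE-wt in vitro replicate 3 alone (adjusted p from 0.0285 to 0.0495). Between the spleen and culture edgeR called 0 of 10, with 3 at an unadjusted p below 0.05 (Tlr2, Tlr4 and Myd88), against 15.9% of genes, and with 0.236% of all genes called higher and 0.207% lower, and DESeq2 called 1, Tlr4. Tlr4 passed without both libraries, with a difference of 1.55 ± 0.32 (edgeR, adjusted p = 0.0262, against 0.56% of genes higher and 0.378% lower), and without NFKBIE-wt in vitro replicate 2 (1.29, adjusted p = 0.042). The latter fit kept NFKBIE-wt in vitro replicate 3, and the share of all genes called in it was not counted.

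The culture samples were next set against each site to describe which genes had RNA in cultured leukemia cells and which were higher where host cells were present. RNA of host cells and a change of the leukemia cells' own RNA in the mouse cannot be told apart in these comparisons. B-cell genes also differed between NFKBIE-ko PC and culture, with Ms4a1 at 1083 to 1343 against 478 to 616 CPM and Cd22 at 27.2 to 38.8 against 167 to 177 CPM. The comparisons of 1 genotype share their samples. In NFKBIE-ko cells, 6 of the 10 genes were higher in the PC than in vitro, against 36% of 12721 genes, and 0 were lower, against 31.8%. The log2 difference was 2.79 ± 0.17 for Tlr4 (n = 4 and 3, edgeR, adjusted p = 6.55e-07), 1.78 ± 0.14 for Tlr2 (adjusted p = 2.02e-06), 1.68 ± 0.11 for Tlr7 (adjusted p = 7.29e-07) and 1.31 ± 0.12 for Tlr6 (adjusted p = 9.19e-06). Irak4 and Myd88 were higher by 1.29 ± 0.13 and 0.67 ± 0.11 (edgeR, adjusted p = 1.15e-05 and 0.000512). Tlr9 differed by 0.18 (95% interval -0.11 to 0.46) and Tlr1 by -0.15 (-0.38 to 0.09), and neither passed. Without NFKBIE-ko PC replicate 2, Tlr1 was lower in the PC by -0.24 (edgeR, adjusted p = 0.0297). In the same comparison all 12 macrophage markers were higher in the PC.

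In NFKBIE-wt cells, 2 of 10 were higher in the PC than in vitro, Tlr7 by 1.28 ± 0.30 and Tlr4 by 0.92 ± 0.25 (n = 4 and 3, edgeR, adjusted p = 0.0238 and 0.0371), against 10.4% of 12571 genes higher and 11% lower. Both calls were lost when NFKBIE-wt PC replicate 1, 3 or 4 or NFKBIE-wt in vitro replicate 2 was left out (adjusted p from 0.0577 to 0.102). Without both libraries that stood apart, Tlr4, Tlr7, Myd88 and Irak4 were higher, by 0.76, 1.06, 0.48 and 0.82 (edgeR, adjusted p = 0.0437, 0.0192, 0.0138 and 0.00535), against 20.2% of genes higher and 17.4% lower. Tlr9 differed by 0.00 with all libraries and by -0.21 without both. Leaving out NFKBIE-wt in vitro replicate 3 alone gave the values without both, since the spleen has no part in this comparison.

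Between the spleen and culture of NFKBIE-ko cells, 3 genes were higher and 4 lower in the spleen, against 20.3% and 18.4% of 12355 genes. Tlr4, Myd88 and Irak4 were higher by 0.80 ± 0.17, 0.71 ± 0.09 and 0.55 ± 0.14 (n = 4 and 3, edgeR, adjusted p = 0.00679, 0.000553 and 0.016). Tlr6, Tlr9, Tlr1 and Traf6 were lower by -1.18 ± 0.19, -0.86 ± 0.20, -0.71 ± 0.09 and -0.34 ± 0.10 (edgeR, adjusted p = 0.00168, 0.00981, 0.000486 and 0.0268). The calls of Irak4 and Traf6 depended on single libraries, since Irak4 missed the threshold without NFKBIE-ko in vitro replicate 1 or 2 and Traf6 without NFKBIE-ko spleen replicate 1 or any 1 of the 3 NFKBIE-ko cultures (adjusted p from 0.0504 to 0.104). With all libraries Tlr7 was also called lower by DESeq2 (-0.74, adjusted p = 0.029) and with total counts (-0.76, edgeR, adjusted p = 0.0492). Irak1 was called lower in 1 fit of all samples (-0.20, edgeR, adjusted p = 0.0363). The share of all genes called in these settings was not counted. Without NFKBIE-ko spleen replicate 2, all 10 genes were called, with Tlr2 higher by 0.46 and Tlr7 and Irak1 lower by -1.03 and -0.27 (edgeR, adjusted p = 0.00762, 0.000811 and 0.00521), and 28.1% of 12237 genes were then called higher and 26% lower. That library had the highest Tlr7 and Tlr9 levels of its group, 9.50 and 52.4 CPM, and the lowest macrophage sum, 100 CPM.

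In NFKBIE-wt cells edgeR called 0 of the 10 genes between the spleen and culture, 2 had an unadjusted p below 0.05 (Tlr6 and Tlr7), against 1.1% of genes, and DESeq2 also called 0. Of all 12332 genes, 0% were called in that comparison, which holds both libraries that stood apart. Without them Tlr9 was lower in the spleen by -1.48 ± 0.33 (n = 3 and 2, edgeR, adjusted p = 0.0472), against 3.23% of 12472 genes lower and 3.43% higher.

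**Figure D5:**
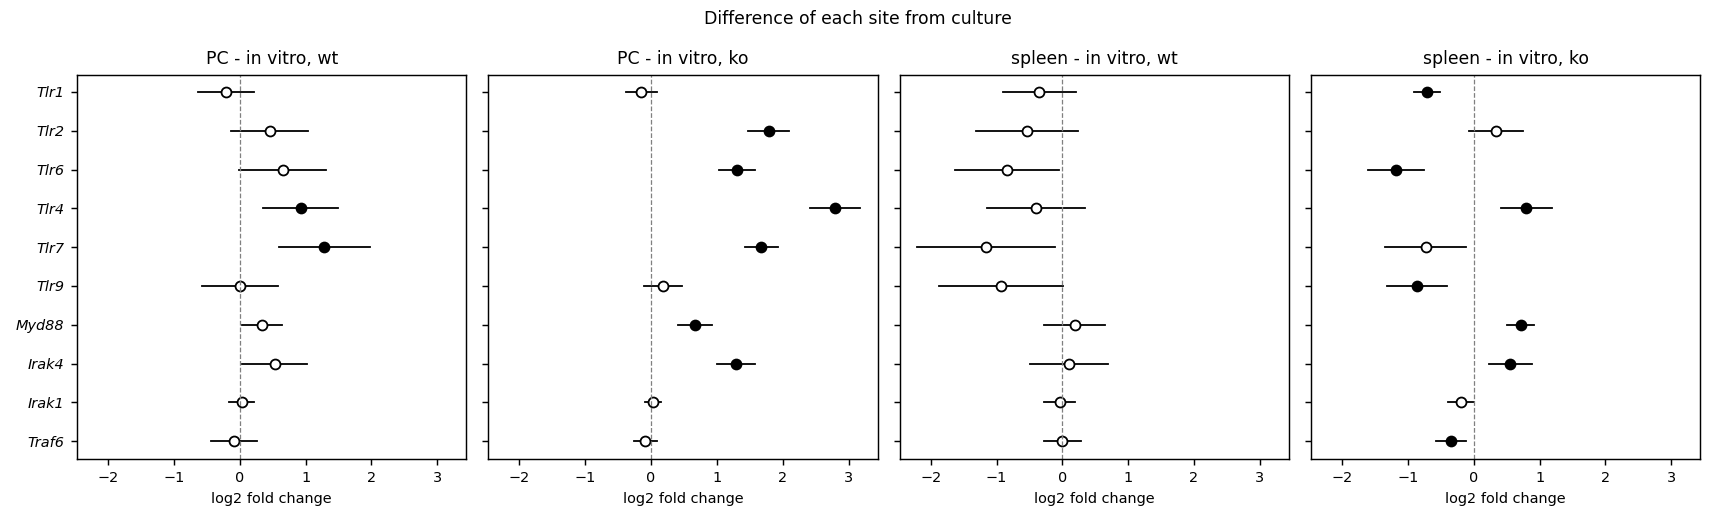
Log2 fold change of the PC (left pair) and the spleen (right pair) against culture for the 10 genes in NFKBIE-wt and NFKBIE-ko cells, with 95% intervals and all libraries; filled points passed the edgeR test at an adjusted p of 0.05. In NFKBIE-ko, Tlr1 and Tlr9 lie near 0 between PC and culture (-0.15 and 0.18) and below it between spleen and culture (-0.71 and -0.86).

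The PC was finally compared with the spleen within each genotype, where samples of both sites share animals that the labels do not link. In NFKBIE-ko cells 7 of 10 genes were higher in the PC, against 29.6% of 12628 genes (30.1% were lower), with a log2 difference of 2.43 ± 0.17 for Tlr6, 2.35 ± 0.24 for Tlr7, 1.94 ± 0.15 for Tlr4 and 1.39 ± 0.18 for Tlr2 (n = 4 and 4, edgeR, adjusted p = 2.79e-06, 2.63e-05, 5.39e-06 and 0.000104). Tlr9, Irak4 and Tlr1 were higher by 0.98, 0.68 and 0.50 (edgeR, adjusted p = 0.00232, 0.000592 and 0.00242), and Irak1 was called as well when NFKBIE-ko spleen replicate 2 was left out (0.24, adjusted p = 0.0114). Irak1 also passed with all libraries under the stricter filter, with the main transcript and in 1 fit of all samples (0.22, 0.30 and 0.17, edgeR, adjusted p = 0.0348, 0.0306 and 0.0342). In NFKBIE-wt cells 4 of 10 were higher, Tlr7 by 2.42 ± 0.30, Tlr6 by 1.48 ± 0.22, Tlr4 by 1.31 ± 0.22 and Tlr2 by 0.97 ± 0.21 (edgeR, adjusted p = 0.000936, 0.00187, 0.00339 and 0.0103), against 14.3% of 12370 genes higher and 14.3% lower. With NFKBIE-wt spleen replicate 4 left out, Tlr9 was higher as well, by 1.25 ± 0.24 (edgeR, adjusted p = 0.00439, with 18.3% of genes higher and 17.4% lower). With all libraries Tlr9 was also called by DESeq2 (0.91, adjusted p = 0.0187) and in 1 fit of all samples (0.88, edgeR, adjusted p = 0.0219). The share of all genes called in those settings was not counted. The mean levels of Tlr1, Tlr6, Tlr7 and Tlr9 were lowest in the spleen in both genotypes, whereas those of Tlr2 and Tlr4 in NFKBIE-ko were lowest in culture, at 7.03 and 5.28 CPM against 9.08 and 9.38 CPM in the spleen. Myd88, Irak1 and Traf6 did not pass between the sites in the main fit of either genotype. All 12 macrophage markers were higher in the PC than in the spleen in both genotypes.

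The rest of the pathway was followed in 48 listed genes, of which 43 were tested in the PC, where 13 (30.2%) were higher and 6 (14.0%) lower in NFKBIE-ko, beside 22.5% and 20.9% of all genes. The lists within it are small, and their counts are given as a description. Other receptors were higher, 3 of 3 tested, with log2 fold changes of 1.98 ± 0.23 for Tlr8 and 1.81 ± 0.34 for the double-stranded RNA sensor Tlr3. Of the co-receptors 3 of 6 were higher, among them Cd14 by 0.87 ± 0.27 and Ly86, the partner of the receptor homologue CD180, by 0.46 ± 0.10. Among the genes that bring receptors to endosomes or process them there, 2 of 6 were higher, the chaperone Unc93b1 by 0.49 ± 0.06 and the protease Lgmn by 0.41 ± 0.08.

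Of 4 other adaptors tested in the PC, 2 were higher, Ticam2, which links Tlr4 to the TRIF branch, by 1.09 ± 0.08 and Pik3ap1 by 0.35 ± 0.10. The 12 downstream kinases and ubiquitin enzymes gave 0 higher and 4 lower, among them Peli2 by -0.53 ± 0.19 and Tab3 by -0.42 ± 0.12. Of 5 inhibitors tested, Irak3, a kinase-dead family member found mainly in macrophages, was higher by 2.08 ± 0.14 and Sigirr lower by -0.51 ± 0.13. Of 7 transcription factors 2 were higher and 1 lower, with Irf8 higher by 0.80 ± 0.10 and Nfkb1 by 0.40 ± 0.08. The median log2 fold change was 0.11 over the tested genes of all these lists against -0.01 over all genes.

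In the spleen 2 of 41 tested pathway genes were higher in NFKBIE-ko and 0 lower, beside 2.3% and 3.13% of all genes, Irak3 by 1.82 ± 0.35 and Irf5, a factor downstream of MyD88, by 0.65 ± 0.14. Without both libraries that stood apart 7 of 42 were higher and 1 lower, beside 5.48% and 6.68% of all genes, with Irak3 at 1.58, Peli2 at 1.52, Ticam2 at 1.32, Tnfaip3 at 0.77 and Irf8 at 0.76. In vitro, edgeR called 0 of 38 in either direction, with 3 at an unadjusted p below 0.05, and DESeq2 called 0. Without both libraries edgeR also called 0, with 4 at an unadjusted p below 0.05. Between the PC and culture of NFKBIE-ko cells 20 of 43 (46.5%) were higher and 13 (30.2%) lower, beside 36% and 31.8% of all genes, with Irf7, an interferon-induced factor, higher by 4.41 ± 0.20, Irak3 by 3.37 ± 0.12 and Lgmn by 2.11 ± 0.09, and Pik3ap1 lower by -0.96 ± 0.11. Between the spleen and culture of NFKBIE-ko cells 17 of 43 (39.5%) were higher and 8 (18.6%) lower, beside 20.3% and 18.4% of all genes, with Tnfaip3, which removes ubiquitin from TRAF6 and related proteins, higher by 2.00 ± 0.13 and Cd180, a Tlr4 homologue found on B cells, lower by -1.72 ± 0.10.

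For each of the 10 genes, the 3 genes with the most similar profile were found by Pearson's r of log2 CPM over the 22 libraries, as a description, since the libraries fall into groups by site and share those differences. Tlr7 was most like Ctss (r = 0.96), Gm2a (0.95) and Rassf3 (0.94), Tlr4 like Sec14l1 (0.95), Slc7a2 (0.95) and Lpl (0.95), and Tlr2 like Dstn (0.94), Sirpa (0.94) and Spi1 (0.93). Tlr6 was most like Vwa5a, Gys1 and Cmtm6 (r = 0.95 each), and Irak4 like Lacc1 (0.96), Stom (0.95) and Mctp1 (0.95). Tlr1 was most like Copz2 (r = 0.93) and the antigen presentation genes H2-Oa (0.91) and H2-DMb2 (0.91), and Tlr9 like Nbeal2 (0.95), Tenm4 (0.92) and Map4 (0.92). The T-cell genes Trbc1 (r = 0.94) and Cd8b1 (0.92) and the myeloid gene Sirpb1a (0.93) were nearest to Myd88. Likeness was weakest for Irak1, with Smurf1 (r = 0.87), Heca (0.87) and Mnt (0.86), and for Traf6, with Gpalpp1 (0.83), Nr2c2 (0.80) and Sbno1 (0.79). Without both libraries that stood apart these values lay between 0.77 and 0.97 (20 libraries).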

How the data were processed

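Paired-end mRNA libraries of 22 samples were sequenced, and the authors estimated transcript abundances with Salmon (1.8) on GRCm39. The deposited values are estimated counts (expected counts) per transcript, of which 69.5% were not whole numbers. The authors' own comparisons used DESeq2. The strand setting and further filters are not given in the sources used here, but each of the 62492 transcripts listed was above 0 in at least 5 samples.

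From there, 62147 transcripts were matched to GENCODE and summed to 17023 genes, the sums were rounded, and unmatched transcripts (0.619% of counts) were left out. Total counts per sample lay between 24036763 and 26581304, and floors of 3 counts cover counting error only. The intervals of log2 fold changes come from the edgeR fits and include the spread between samples. Groups were taken from the sample titles. The description of each NFKBIE-ko sample opens with the wild-type name of the cells and goes on to name the edit, and its treatment label also gives the edit. Low counts were removed with the filter of edgeR (filterByExpr) within each comparison. Each pair of groups was tested in its own fit with edgeR (4.0.16, robust quasi-likelihood test, TMM scaling, R 4.3.3), and differences of effects in 1 fit of all 22 samples, with Benjamini-Hochberg adjustment over all genes and a threshold of 0.05. Standard errors are the log2 fold change divided by the square root of F. CPM was scaled over all 22 samples, with a prior count of 2 for log2 values, and TPM used annotated transcript lengths. The tests were run on simulated counts with a fixed spread and planted changes larger than most differences reported here. That run does not measure how well smaller differences are found in these data. Figures were drawn with matplotlib (3.10.9).

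All 10 genes are reported in every comparison, at most 2 called genes per list and comparison, those with the largest log2 fold change, are named, and likeness was ranked by Pearson's r. The members and lists were chosen with earlier results of these data known. Alternatives were another scaling (RLE or total counts), no filter or a stricter one (CPM of 5), the main transcript alone, DESeq2 (1.42.0), 1 fit of all samples, a replicate block and leaving out each library. Leaving out both libraries that stood apart was added after seeing the data. Deviations of same-numbered samples correlated with either sign, from -0.334 to 0.39, and the numbers were not taken as pairs. Both ends of that range lay between the spleen and culture of NFKBIE-wt cells, the comparison that holds both libraries that stood apart. No 2 libraries of the same group agreed within sampling noise, and pairs from different groups were not compared.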

Additional observations from a re-analysis of the deposited data

Results flagged for a closer look

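In 40 checks of groups of 4 samples for a value far from the others, 2 stood out, and chance alone gives about 1 in 20. Tlr9 in NFKBIE-ko PC replicate 1 was at 91.2 CPM, with the other samples of its group at 63.5 to 67.3 CPM, so that the gap to its neighbour was 0.862 of the range, above the critical value of Dixon. Myd88 in the library labelled NFKBIE-wt spleen replicate 4 was at 27.5 CPM, with the others at 41.6 to 43.7 CPM and a gap of 0.869 of the range. That library also stood apart in its granulocyte markers.

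The effect of genotype differed between the PC and culture for Tlr2 by 1.32 and for Tlr4 by 1.86 on the log2 scale (edgeR, adjusted p = 0.0265 and 0.0089). For Tlr4 all 4 NFKBIE-ko PC samples lay above all NFKBIE-wt PC samples (log2 fold change 1.00), and all 3 NFKBIE-ko cultures lay below all NFKBIE-wt cultures, with a log2 fold change of -0.85 that did not pass the test (edgeR, adjusted p = 0.517) and a lack of overlap shared by 9.61% of genes in that direction. The macrophage markers were also higher in NFKBIE-ko in the PC, and their part in these differences was not tested.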

How the results depend on the processing

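Of the log2 fold changes of the 10 genes under the alternatives other than leaving out 1 library, 938 kept their direction and their side of the threshold, 19 lost and 23 gained a call, and 28 changed sign, and when 1 library was left out these counts were 1229, 26, 16 and 49. Where the number of called genes moved, the cause was not tested. Among these alternatives, the share of all genes called was counted without both libraries that stood apart. It was also counted in 1 fit without NFKBIE-ko spleen replicate 2. For the others, here and below, a moved count cannot be set beside that share and is not a result about the 10 genes. In the PC 7 genes were called between genotypes and 4 in 1 fit of all samples. In the spleen 1 was called, against 0 without the filter, 0 with the main transcript alone, 2 with DESeq2, 3 in 1 fit of all samples and 2 without both libraries that stood apart. Between the PC and culture of NFKBIE-wt cells 2 were called, against 0 with the main transcript and 4 without both libraries, and between the spleen and culture of NFKBIE-wt cells 0, against 1 without both. Between the spleen and culture of NFKBIE-ko cells 7 were called, against 3 with the main transcript, and DESeq2 called Tlr7 as well. Different effects in the PC and spleen were called for 0 genes, against 1 with DESeq2 and 1 without both libraries, in the spleen and culture for 0, against 1 and 1, and in the PC and culture for 2, against 1 with the main transcript. For the PC and culture DESeq2 called Irak4 as well.

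With the replicate block 0 genes were called between genotypes in the spleen, 0 between the PC and culture of NFKBIE-wt cells and 1 for different effects in the PC and culture, and between the spleen and culture of NFKBIE-ko cells 6. Same-numbered samples share only a number.

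Leaving out 1 library gave 7 to 7 called genes between genotypes in the PC, 0 to 2 in the spleen and 0 to 2 in vitro. For the PC against culture it gave 6 to 7 in NFKBIE-ko and 0 to 4 in NFKBIE-wt, for the spleen against culture 5 to 10 and 0 to 0, and for the PC against the spleen 7 to 8 and 4 to 5. For different effects it gave 1 to 3 (PC and culture), 0 to 1 (PC and spleen) and 0 to 1 (spleen and culture).

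The changes of sign concerned differences that were called in neither fit. Between genotypes Irak1 in the PC became 0.017 with the main transcript, Tlr6 in vitro 0.0093 with the replicate block, and without both libraries Tlr2, Irak4 and Traf6 in vitro became -0.092, 0.14 and 0.019. Between the PC and culture of NFKBIE-wt cells Tlr9 became -0.043 with total counts, -0.021 with the main transcript, -0.037 in 1 fit of all samples and -0.205 without both libraries, and Irak1 -0.021 with total counts and -0.0075 in 1 fit. In NFKBIE-ko cells Irak1 became -0.065 with total counts and -0.030 in 1 fit, and Tlr1 0.12 with the main transcript. Between the spleen and culture of NFKBIE-wt cells Traf6 became 0.0085 with RLE, 0.0084 with DESeq2, 0.0053 in 1 fit, 0.045 with the replicate block and 0.12 without both, and between the PC and spleen of NFKBIE-wt cells Myd88 became -0.0039 without both. For different effects in the PC and culture Irak1 became 0.0020 with RLE, 0.0020 with DESeq2 and 0.17 with the main transcript, and Traf6 0.012, 0.012 and 0.048. Without both, Tlr9 became -0.26 (PC and spleen) and Tlr6 0.023 (spleen and culture).

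When 1 library was left out, values whose sign changed ranged as follows. Between genotypes, Myd88 from -0.036 to 0.12 and Traf6 from -0.16 to 0.0091 in the PC, and Irak4 from -0.28 to 0.14, Tlr2 from -0.092 to 0.37, Tlr6 from -0.31 to 0.21 and Traf6 from -0.11 to 0.019 in vitro. In NFKBIE-wt cells, Tlr9 from -0.205 to 0.30 between the PC and culture, Irak1 from -0.060 to 0.014, Irak4 from -0.022 to 0.39 and Traf6 from -0.046 to 0.077 between the spleen and culture, and Myd88 from -0.0039 to 0.19 and Tlr1 from -0.0051 to 0.25 between the PC and spleen. For different effects in the PC and culture, Irak1 from -0.051 to 0.013, Tlr1 from -0.15 to 0.19, Tlr7 from -0.059 to 0.61, Tlr9 from -0.14 to 0.37 and Traf6 from -0.086 to 0.087. In the PC and spleen Tlr7 ranged from -0.24 to 0.25 and Tlr9 from -0.24 to 0.36, and in the spleen and culture Tlr7 from -0.018 to 0.65 and Tlr9 from -0.24 to 0.40. With lengths shortened by 200 bases, 30 of 60 group levels per length moved by more than 1 SD.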
